A study of Homo sapiens with 4 samples.

Results

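Clusters of HOXB13 binding sites, stretches of the genome in which 5 or more peaks follow each other closely, were described in LNCaP cells exposed to GSK2879552. Peaks of the GSK2879552 list on chromosomes 1 to 22 and X were sorted by start and chained while the gap from the end of a peak to the start of the next was at most 12.5 kb, and chains of 5 or more peaks were kept as clusters. Chains within 2 Mb of a stretch of at least 2.5 Mb without any GSK2879552 peak were left out. This gave 604 clusters with 3563 member peaks, of 67679 peaks on these chromosomes and 68725 in the whole list. The 61128 peaks in chains of 1 to 4 served as the peaks outside clusters, and 2988 peaks in chains beside the peak-free stretches entered neither group. Members were selected on measured values, the positions of the GSK2879552 peaks, so number, spacing and length of the clusters are descriptions without a test. Vehicle peaks played no part in the choice.

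HOXB13 is a posterior homeobox transcription factor that marks the prostate lineage. It binds mostly at enhancers, many of them shared with the androgen receptor and the pioneer factor FOXA1. Enhancers of lineage genes often hold several factor-bound elements in a row, and joining sites up to the same gap is the usual convention by which super-enhancers are delimited. HOX proteins also bind within the HOX gene complexes themselves, the ordered arrays of homeobox genes that set positional identity. GSK2879552 blocks LSD1 (KDM1A), a demethylase of histone H3 that acts as corepressor and, with the androgen receptor, as coactivator.

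LNCaP is an established line of androgen-sensitive prostate cancer cells. HOXB13 chromatin was immunoprecipitated from cells grown in medium with 10% FBS and moved to 5% CSS, with GSK2879552 at 50 µM over 4 hours or with vehicle. The labels give all 4 samples the same treatment text, with the inhibitor in it, and the vehicle group was taken from titles and descriptions. Each treatment had 1 library read on 2 lanes, which the labels call technical replicates, and 1 peak list for both lanes. No treatment was replicated, so no value has an error between cultures, no test between treatments was possible, and binomial intervals (exact, 95%) cover counting error only.

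Depth was taken from the peaks. The pileup, the number of extended tags over the summit, was solved from each deposited fold enrichment and p-value, together with the local background, the tags expected there. Whole pileups were found for 100% of peaks, between 10 and 278 in the GSK2879552 list and between 5 and 199 in the vehicle list. The genome-wide background was 2.79 tags with GSK2879552 and 0.443 with vehicle, so a site needed more signal over background to be called with vehicle. The missing vehicle peak at a site is therefore not a measurement of absent binding. Fold enrichment is the authors' value at the summit over the local background of the same peak, with an equal constant added to both. That constant weighs more against the vehicle background of 0.443 tags than against 2.79, and lowers vehicle values more. Fold enrichments of a GSK2879552 peak and its vehicle partner, given side by side below, are therefore not on a common scale. Which of them is higher does not compare binding between treatments. Local background is given below as a multiple of the genome-wide value of its library.

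Most clusters were small. Of the 604, 351 (58.1%) held exactly 5 peaks, 135 held 6, 102 held 7 to 9 and 16 held 10 or more, with a maximum of 20. The median length was 26.7 kb (quartiles 20.8 and 34.1 kb), from 2.50 to 95.9 kb. Together the clusters spanned 17.1 Mb, 0.622% of the 2752 Mb outside the long stretches and their flanks, and held 5.51% of the peaks there. Peaks covered 4.84% of the cluster length. Neighbouring member peaks were separated by a median of 5571 bp (quartiles 1735 and 8688 bp), against 22.4 kb between neighbouring peaks of the whole set, and 552 of the 2959 gaps within clusters (18.7%) were under 1 kb.

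**Figure D1:**
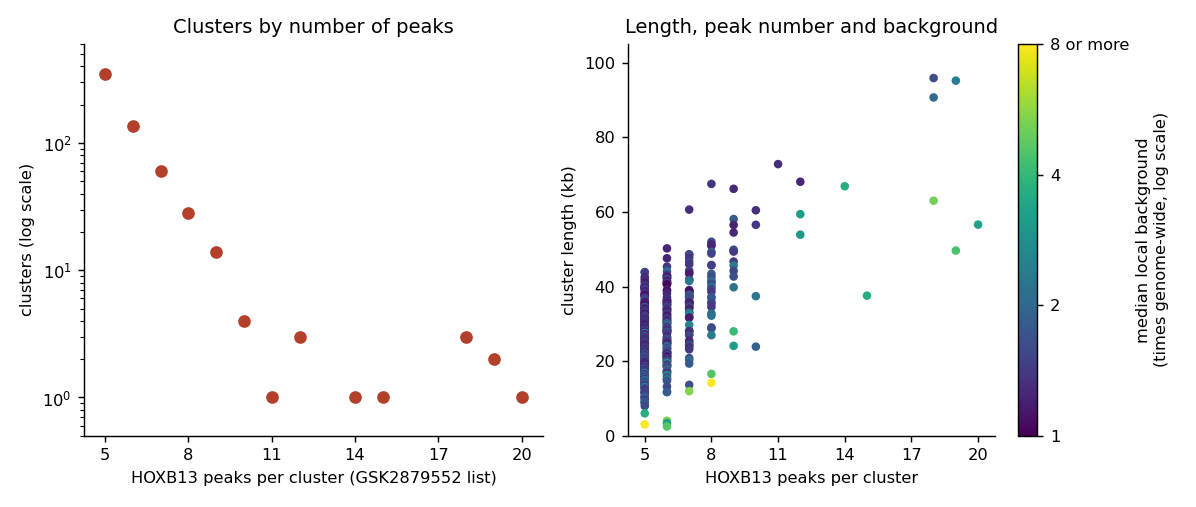
Left, number of clusters (log scale) by peaks per cluster in the GSK2879552 list; right, cluster length in kb against peaks per cluster, each point a cluster coloured by the median local background of its peaks. The 351 clusters of 5 peaks dominate, and clusters of like peak number differ widely in length, from 49.6 kb to 95.2 kb at 19 peaks.

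The limits of the definition fell in a continuum. A total of 666 gaps between peaks fell within 500 bp below the largest gap joined, and 617 within 500 bp above it. Chains of 4 peaks, just outside, numbered 997 with medians of 4.14 for fold enrichment and 1.38 times for local background. Clusters of 5 peaks, just inside, had medians of 4.05 and 1.40 times.

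Clusters occurred on every chromosome examined. Chromosomes 3, 1 and 7 held the most, with 58, 50 and 43. The share of peaks that lay in clusters was highest on chromosome 18 with 7.47%, followed by chromosome 14 with 7.08% and chromosome 17 with 7.05%. It was lowest on chromosome X, with 0.882% in 1 cluster of 6 peaks, and on chromosome 20, with 3.06%. Another cluster lay within 100 kb of 75 clusters, and the median distance to the nearest was 1169 kb. The most clusters in a bin of 1 Mb, 4, were found at 30 to 31 Mb of chromosome 14, at 190 to 191 Mb of chromosome 4 and at 17 to 18 Mb of chromosome 21.

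The longest cluster of all, chr7:27128264-27224135, held 18 HOXB13 peaks in 95.9 kb. No annotation of the hg19 build was at hand. By general knowledge of the build, this interval lies in the HOXA gene complex. RefSeq's gene table, of GRCh38 and used for names only, lists 11 HOXA genes, all on chromosome 7. Fold enrichments ran from 3.47 to 8.48 with a median of 5.14, against a median of 4.03 over all members. Local background was 1.62 times genome-wide in the median, and peak widths ran from 139 to 685 bp. The peak with the highest fold enrichment, at 27179817 to 27180117 with 8.48 and a pileup of 46, had no vehicle peak. Vehicle peaks overlapped 4 of the 18, at GSK2879552 fold enrichments between 6.69 and 7.15, while the other 14 ranged from 3.47 to 8.48. Members with and without a vehicle peak thus overlapped in strength here. As a scale for this and later counts, 4.07% of members and outside peaks together had a vehicle peak. Among members the share was 5.95%, and among members with fold enrichments from 5.33 it was 24.7%. The 4 vehicle peaks had fold enrichments of 5.49, 5.46, 4.95 and 4.74 and pileups of 8, 12, 8 and 8.

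A cluster of like build lay at chr12:54341018-54431682, the third longest, with 18 peaks in 90.7 kb. By general knowledge it falls in the HOXC gene complex (9 HOXC genes in the table, all on chromosome 12). Fold enrichments ran from 2.90 to 11.2 with a median of 5.05, and the median local background was 2.06 times. The strongest peak, at 54427206 to 54427697, had a pileup of 119. Its vehicle partner reached 27 tags at a fold enrichment of 10.2. Vehicle peaks overlapped 5 members, whose fold enrichments lay between 7.40 and 11.2. The other 13 lay between 2.90 and 7.07. In this interval the members with a vehicle peak all had higher fold enrichments than those without. Their pileups, from 50, overlapped those of the others, which reached 51.

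**Figure D2:**
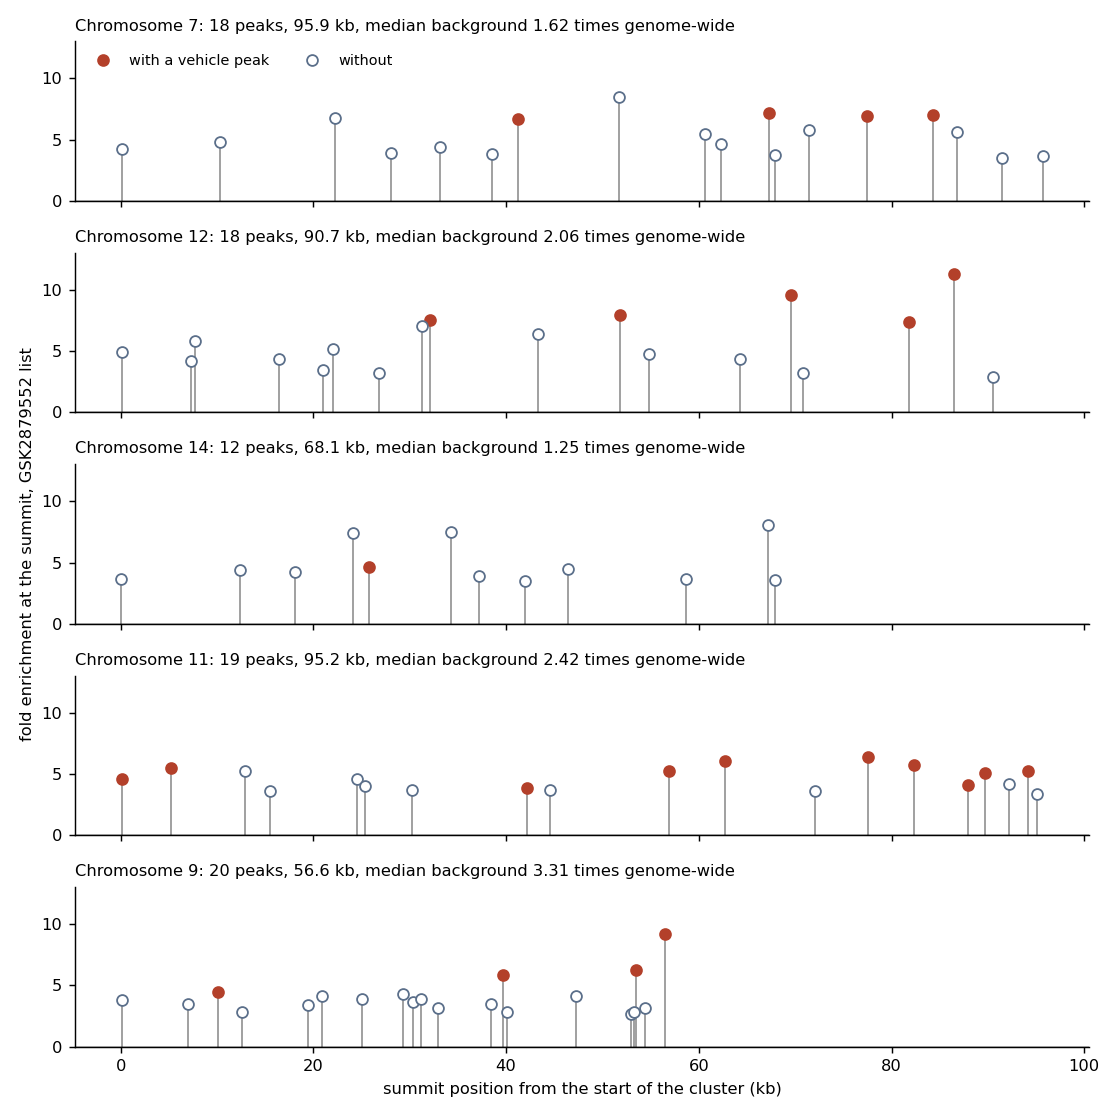
Fold enrichment at the summit (GSK2879552 list) against distance in kb from the start of the cluster, for 5 of the 10 clusters with the most peaks; filled points have an overlapping vehicle peak, open points have none. On chromosome 12 the 5 filled points stand above all open ones, whereas on chromosome 7 the highest point, 8.48, is open.

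HOX genes other than these were also reached. On chromosome 17, which carries all 10 HOXB genes of the table, the bin from 46 to 47 Mb held 3 clusters with 20 of its 60 peaks. The cluster chr17:46675386-46711247, in the HOXB complex by general knowledge, had 8 peaks with fold enrichments from 4.85 to 9.84 and 3 vehicle peaks. Its strongest peak, at 46702946 to 46703301 with 9.84, had a vehicle partner of 8.47. The cluster chr17:46792944-46806759 lies at the HOXB13 gene itself by the same knowledge. Its 5 peaks had fold enrichments of 6.49, 4.36, 2.74, 6.23 and 9.48 in order along the chromosome, with pileups of 37, 30, 24, 47 and 69. Vehicle peaks overlapped the outermost peaks, with fold enrichments of 6.15 and 7.08. The third cluster, chr17:46821267-46857154, had 7 peaks and no vehicle peak. Its last peak had a fold enrichment of 11.5 and the other peaks lay between 3.03 and 4.75. In a 1 Mb bin of chromosome 2 that holds part of the HOXD complex by general knowledge, none of 23 peaks was in a cluster. The rest of that complex lies beyond the bin and was not looked at.

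Clusters also lay at other loci known in prostate cells, again placed by general knowledge of the build. At FOXP1, a forkhead transcription factor gene, chr3:71055599-71098281 held 9 peaks with fold enrichments up to 5.06 and no vehicle peak. Its neighbour chr3:71179108-71212752 held 5, of which the strongest (11.8, pileup 62) had the only vehicle peak there, with 6.51. At MIPOL1, next to the FOXA1 gene, chr14:37863851-37921933 held 9 peaks, and the strongest (10.7, pileup 101) again had the only vehicle peak, with 5.56. The other 2 clusters of that 1 Mb bin, with 5 peaks each, had none. At RFX6, a locus of inherited prostate cancer risk, chr6:117209754-117253938 held 9 peaks with fold enrichments from 2.93 to 6.83. Its single vehicle peak lay on a member with 6.50 and not on the one with the highest fold enrichment. The member with the vehicle peak had the highest pileup, 38 against 36. At MIR99AHG, a long noncoding RNA gene, and the sequence beside it, the 4 clusters on chromosome 21 from 17 to 18 Mb held 23 of 59 peaks and 1 vehicle peak, on the strongest member of the bin (8.15, pileup 70).

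Dense bins did not always hold clusters. On chromosome 11 from 23 to 24 Mb 72 peaks were found, and 6 of them formed a cluster, chr11:23515371-23530479. In the 1 Mb bin of chromosome 8 that holds MYC, none of 48 peaks did.

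The 10 clusters with the most peaks were otherwise mainly of high local background. In order, they were chr9:69953542-70010132 with 20 peaks, chr11:48805052-48900223 and chr2:89830391-89880025 with 19 each, the HOXA, HOXC and chr9:68362840-68425840 intervals with 18 each, chr2:132975328-133012885 with 15, chr8:86770756-86837631 with 14, and chr14:100003732-100071813 and chr1:145202863-145262254 with 12 each. Another cluster of 12 peaks, chr14:30322471-30376369, was shorter and fell outside the 10 for that reason. It had a median local background of 3.09 times, a median fold enrichment of 3.64 and 1 vehicle peak. Median local backgrounds of the 10 were 3.31, 2.42, 4.39, 1.62, 2.06, 5.20, 3.64, 3.69, 1.25 and 3.15 times. Only 2 of the 10 were under 2 times, the HOXA interval and that on chromosome 14. Median fold enrichments in the same order were 3.73, 4.55, 4.65, 5.14, 5.05, 2.79, 3.57, 2.82, 4.30 and 3.0. Both HOX intervals thus had the highest median fold enrichments of these 10. No list of repeated or artefact-prone sequence was used, and the part of such sequence in these clusters was not tested.

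The strongest members of the other 8 differed in kind. The cluster with 20 peaks ended in its strongest, at 70009668 to 70010132 on chromosome 9, with a fold enrichment of 9.17 and a vehicle partner of 19.4. On chromosome 11 the peak at 48882513 to 48882763 had 6.35 and a vehicle partner of 9.69. On chromosome 2 the peak at 89830391 to 89830619 had 8.96 at a local background of 1.0 times, with a vehicle partner of 9.70, although the cluster's background reached 7.39 times. The strongest of the second chromosome 9 cluster, at 68419540 to 68419903, had 4.01 at a pileup of 165 and a background of 14.5 times, with a vehicle partner of 4.61. The other 4 had no vehicle partner: 133012638 to 133012885 on chromosome 2 (6.14), 86785586 to 86786083 on chromosome 8 (4.10), 100070822 to 100071049 on chromosome 14 (8.05) and 145246258 to 145246514 on chromosome 1 (5.27).

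By length, the HOXA and HOXC intervals were joined by the chromosome 11 cluster of 19 peaks (95.2 kb), chr2:159921793-159994600 (72.8 kb) and the chromosome 14 cluster of 12 peaks (68.1 kb). That on chromosome 2 held 11 peaks with a median fold enrichment of 5.35 at a local background of 1.32 times. Its 3 members with a vehicle peak had fold enrichments from 7.83 to 10.9, and the other 8 from 3.48 to 7.01. The densest clusters of at least 10 peaks were chr14:77489276-77513162 with 4.19 peaks per 10 kb, the chromosome 2 clusters of 15 and 19 peaks with 3.99 and 3.83, and the chromosome 9 clusters of 20 and 18 peaks with 3.53 and 2.86. The chromosome 14 cluster was even, with all 10 fold enrichments between 3.26 and 4.21.

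The 5 highest fold enrichments of single members lay in clusters of 6 to 10 peaks, none of them among the 10 with the most peaks. The peak at 28612818 to 28613222 on chromosome 7 had 15.4, in a cluster of 10. It was followed by 64993993 to 64994371 on chromosome 12 with 15.4 (pileup 104), 18688089 to 18688503 on chromosome 22 with 14.4 (79), 89882494 to 89882984 on chromosome 14 with 13.4 (74) and 68620159 to 68620738 on chromosome 10 with 13.4 (107). All 5 had a vehicle partner, with fold enrichments of 8.41, 10.6, 19.9, 6.25 and 7.58. The highest fold enrichment outside clusters was 25.7.

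Within clusters, most peaks were of like strength. The highest fold enrichment of a cluster was a median of 1.40 times the cluster's median (quartiles 1.22 and 1.73), and it reached at least 2 times in 73 clusters. A peak of fold enrichment 10 or more occurred in 21 clusters, and 174 clusters (28.8%) had none of 5 or more. The peak with the highest fold enrichment was the first or last of its cluster in 261 clusters (43.2%), while 33.9% of member peaks were first or last. These shares are not a like comparison, since the latter is over all members and larger clusters weigh more in it. Fold enrichment also depends on the local background, which may differ at the ends of a cluster. This was not tested.

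Member peaks were not stronger over background than other peaks. Their median fold enrichment was 4.03 (quartiles 3.55 and 4.85), against 4.23 (3.72 and 5.05) outside clusters, and the medians were 4.32, 4.22, 4.18 and 4.14 in chains of 1, 2, 3 and 4. Median widths were 201 and 198 bp. Median pileups were 20 in clusters and 18 outside. The local background was higher in clusters, with a median of 1.46 against 1.2 times, and 17.8% of members against 3.10% of outside peaks were at 2 times or more. At 5 times or more there were 44 members and no outside peak. Backgrounds above the genome-wide value corresponded to whole numbers of tags in a 10 kb window for 100% of peaks, so they count tags around the peak, including any neighbouring peaks if the background was taken from the same library. Peaks with no other peak within 5 kb had a median background of 1.27 times in clusters and 1.14 outside, and those with exactly 2 had 1.81 and 1.63.

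Vehicle peaks were found at a larger share of member peaks than of peaks outside clusters. They overlapped 212 of the 3563 members by at least 1 bp, a share of 5.95% (5.20 to 6.78), against 2421 of 61128, or 3.96% (3.81 to 4.12). The share over both groups together was 4.07%. The excess lay in the larger clusters. With 5 and 6 peaks per cluster the shares were 4.39% (3.48 to 5.45) and 4.32% (3.03 to 5.96), with 7 to 9 peaks 7.27% (5.54 to 9.34), and with 10 or more 19.3% (14.4 to 25). Chains of 1, 2, 3 and 4 had 3.80%, 4.00%, 4.14% and 4.59%. Median local background was 1.40, 1.43, 1.55 and 2.51 times in the 4 cluster classes. Neighbouring peaks can share tags of their 10 kb background windows and are not independent, so the intervals may be too narrow. No test of the difference was made with 1 library per treatment.

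**Figure D3:**
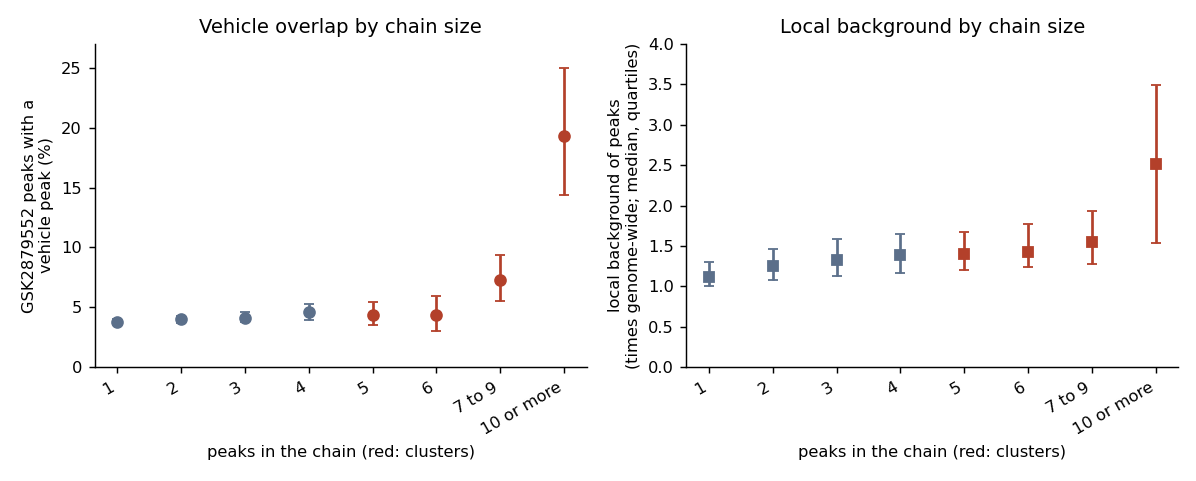
Left, percent of GSK2879552 peaks overlapped by a vehicle peak, with exact 95% binomial intervals, by number of peaks in the chain; right, local background of the same peaks (median and quartiles, times genome-wide). Red marks the clusters: the share reaches 19.3% and the median background 2.51 times in clusters of 10 or more peaks.

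The share was higher in clusters of high background. In the 87 clusters whose peaks had a median background of 2 times or more, 95 of 612 members had a vehicle peak, 15.5% (12.7 to 18.6). Of the 2951 members of the other 517 clusters, 3.96% (3.29 to 4.73) did. The share outside clusters was also 3.96%, but over peaks of any background. Limited to peaks with a background under 2 times, the shares were 3.38% in clusters and 3.36% outside.

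At equal pileup, members had a vehicle peak less often in 5 of 6 classes, though most intervals overlapped. At pileups of 40 to 59 the shares were 29.2% (23.2 to 35.7) in clusters and 38% (35.9 to 40.2) outside, and at 60 or more 74.3% (64.6 to 82.4) and 81.6% (78.2 to 84.7). At 30 to 39 they were 8.81% (6.18 to 12.1) and 12.2% (11.2 to 13.2), and below 15 they were 0.483% (0.0586 to 1.73) and 0.338% (0.241 to 0.460). Outside peaks weighted to the pileups of the members had 7.42%, above the 5.95% of the members. At equal local background members were again lower in 4 of 5 classes. At 2 to under 3 times the shares were 13.1% (10.1 to 16.6) and 22.5% (20.6 to 24.5), and at 1.5 to under 2 times 6.02% (4.62 to 7.68) and 9.33% (8.75 to 9.94).

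At equal fold enrichment the order was the opposite in all 5 classes. In the highest class, from 5.33, 24.7% (21.3 to 28.3) of members and 16.3% (15.6 to 16.9) of outside peaks had a vehicle peak. In the lowest it was 1.52% (0.869 to 2.45) and 0.353% (0.255 to 0.477). Outside peaks weighted to the fold enrichments of the members had 3.48%. Whether members were above or below other peaks in vehicle overlap thus depended on the measure of strength that was held equal.

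**Figure D4:**
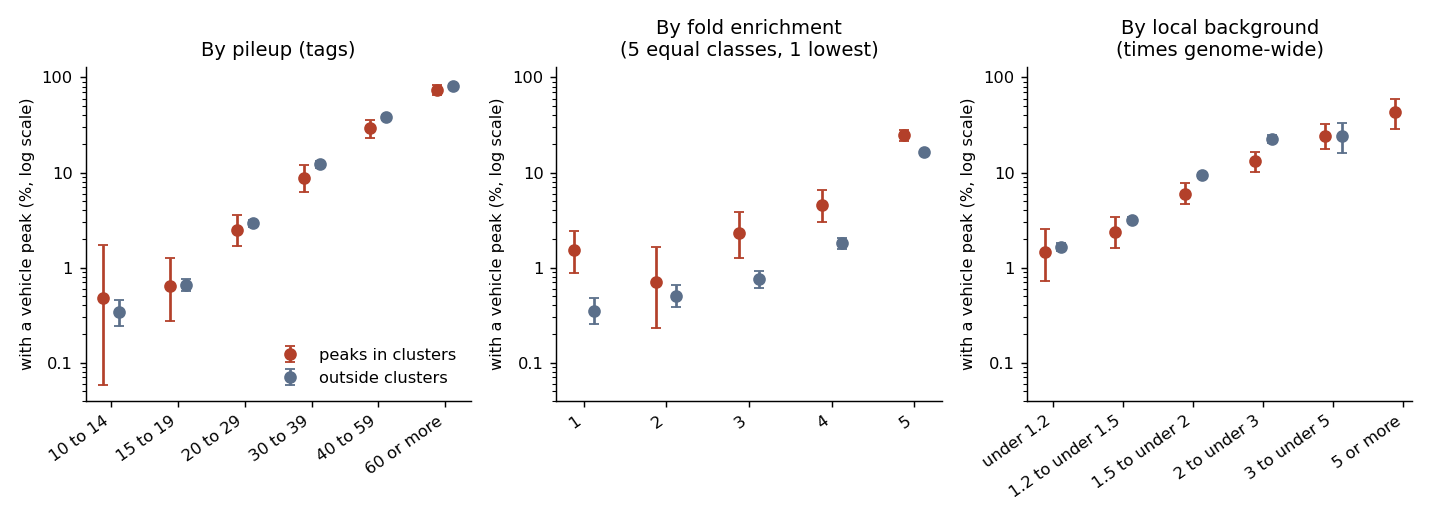
Percent of GSK2879552 peaks with a vehicle peak (log scale, exact 95% binomial intervals) in clusters and outside, within classes of pileup in tags, fold enrichment and local background. Peaks in clusters lie at or below the others at equal pileup except in the lowest class, and above them in each class of fold enrichment.

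By chromosome, the share with a vehicle peak was higher among members on 18 of 23 chromosomes and lower on chromosomes 3, 13, 15, 16 and 21. It was 14.1% against 3.40% on chromosome 2 and 10.3% against 4.64% on chromosome 11. A single cluster of 19 peaks held 10 of the 19 overlapped members on chromosome 2, and another held 10 of the 22 on chromosome 11. Among peaks with a background under 2 times the share was higher among members on 11 chromosomes. Chromosome 2 then had 4.85% against 3.07%, and chromosome 20 had 12.8% (5 of 39 members) against 4.23%.

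**Figure D5:**
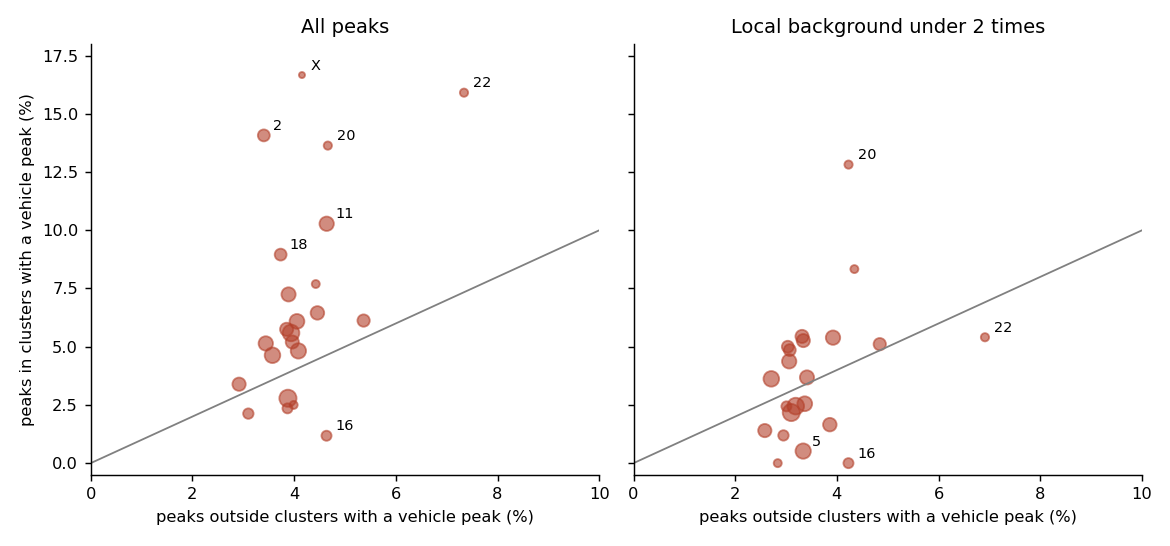
Percent of member peaks with a vehicle peak against the percent outside clusters, each point a chromosome with an area that grows with its number of members; the line marks equal shares. With all peaks 18 of 23 points lie above the line, and with a local background under 2 times 11 do (chromosome X then has no member left).

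Counted once per cluster, 147 of the 604 clusters held a vehicle peak, 24.3% (21 to 28). Of these, 116 held 1, 17 held 2 and 14 held 3 or more. The share was 18.5% (14.6 to 23) with 5 peaks, 23% (16.2 to 31.0) with 6, 39.2% (29.7 to 49.4) with 7 to 9 and 68.8% (41.3 to 89.0) with 10 or more. A larger cluster offers more peaks to overlap, so this order follows in part from the count itself. By background it was 15.3% (11.7 to 19.5) under 1.5 times, 31.5% (24.5 to 39.2) at 1.5 to under 2 times and 47.1% (36.3 to 58.1) at 2 times or more. In the 113 clusters with exactly 1 overlapped member, that member had the highest pileup of its cluster in 82 (72.6%, 63.4 to 80.5) and the highest fold enrichment in 74 (65.5%). A single peak made up 17% of the peaks of these clusters on average.

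Seen from the vehicle list, 223 of the 2938 vehicle peaks outside the flanks fell in clusters, 7.59% (6.66 to 8.61), beside 5.51% of the GSK2879552 peaks. Of the 223, 218 overlapped a GSK2879552 peak, 97.8% (94.8 to 99.3), against 90.4% (89.2 to 91.5) of the 2715 vehicle peaks elsewhere. Their median fold enrichment was 6.01 against 5.88, their median pileup 11 against 9 and their vehicle background 2.08 against 1.51 times. Among vehicle peaks with a vehicle background under 2 times, 4.32% (3.55 to 5.20) fell in clusters. The 5.51% of GSK2879552 peaks is over peaks of any background and is not a like scale for this value. Summits of paired peaks lay a median of 22 bp apart for members and 33 bp outside, and 76.4% (70.1 to 82.0) against 66.4% (64.5 to 68.3) lay within 50 bp. When vehicle peaks were chained by the same gap, 4 chains of 5 or more lay away from the long stretches, all of them overlapping a cluster.

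The 5 clusters with the most vehicle peaks held 41 of the 223. The first, chr1:564485-578709, had 8 GSK2879552 peaks and 11 vehicle peaks in 14.2 kb, at a median background of 25.4 times and fold enrichments from 2.53 to 3.87. Its 7 members with a vehicle peak had pileups from 182 to 245, and the remaining member had 16. The clusters of 19 peaks on chromosomes 11 and 2 had 10 vehicle peaks each. The cluster chr5:134247119-134263710 had 5 on 8 members, at a background of 4.54 times, with vehicle fold enrichments of 14.6, 13.1, 4.12, 7.98 and 6.76. The HOXC interval was the fifth. Without these 5 clusters the share of members with a vehicle peak was 5.01% (4.31 to 5.79).

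No vehicle peak was called in 457 clusters. The largest were those on chromosome 8 (14 peaks) and chromosome 1 (12 peaks) named above, chr13:95746787-95807224, chr1:235096442-235133855 and chr14:77489276-77513162 with 10 each. On chromosome 13 all 10 fold enrichments lay between 3.74 and 5.81 and all pileups between 19 and 28, a range in which few peaks outside clusters had a vehicle peak either (2.92% at pileups of 20 to 29). Both chromosome 1 clusters differed in pileup. Their strongest peaks, at 145246258 to 145246514 and 235097890 to 235098142, had pileups of 62 and 67. At pileups of 60 or more, 81.6% of outside peaks and 74.3% of members had a vehicle peak. Their fold enrichments were 5.27 and 8.49. In the fold enrichment class of the first, 1.79% of outside peaks and 4.57% of members had a vehicle peak. In that of the second the shares were 16.3% and 24.7%.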

How the data were processed

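HOXB13 peak lists of 2 groups, from 4 samples, were used. Per the submitters' processing notes the tools were BWA 0.7.2, SAMtools 0.1.18, and MACS2 2.1.2, on hg19 and GRCh37, without role or order. Input control and read filters: not given in the sources used here. Coordinates are hg19, counted from 1. Fold enrichment (a ratio), the −log10 p-value and its q-value are deposited by the authors for each peak. The deposited score column was not used.

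Depth comes only from the solved pileups. For each peak a whole pileup k, with background λ, was sought that satisfied both fold = (k + 1)/(λ + 1) and the Poisson p-value (tolerance 0.001 on the log10 scale), with Python 3.11.15 and scipy 1.17.1. The solver, the chaining and the overlap were tested on simulated data. Clusters were named by rule: the 10 with the most peaks (ties by length), the 5 longest, the 5 densest of at least 10 peaks, the 5 with the most vehicle peaks, the 5 largest without one, and the strongest members. Members and lists were chosen with earlier results of these data known. Loci of HOX and prostate genes and dense bins were chosen after their values were seen and lie outside this rule. That rule allowed gene names only from an hg19 annotation, so the names placed by general knowledge depart from it. Alternatives covered gap, cluster size, peak filters, flanks and overlap. No sequence is shown, since a genome of this build was not used.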

Additional observations from a re-analysis of the deposited data

Results flagged for a closer look

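Chains of 5 or more peaks also occurred where the comparisons did not look. Chromosome Y held 13 such chains with 196 of its 370 GSK2879552 peaks, and 2 with 20 of its 64 vehicle peaks. Sequences outside the chromosomes held 32 chains with 500 of 676 GSK2879552 peaks, and 10 with 165 of 215 vehicle peaks. The 106 chains left out beside long peak-free stretches held 1211 peaks, up to 39 in a chain, at a median local background of 3.25 times genome-wide. Vehicle peaks overlapped 361 of these 1211, 29.8% (27.2 to 32.5), against 5.95% of the members. Each was picked out because it is signal in data that the comparisons left out, and none was tested.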

How the results depend on the processing

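Every value above comes from 1 library per treatment, so leaving out a lane could not be run, and stability here concerns settings only. No paired analysis was possible because the result comes from no test and the lanes have no peak list of their own. The number of clusters and the share of vehicle peaks inside them are set by the definition. With gaps of at most 6 kb there were 72 clusters, 418 members, a median length of 13.4 kb and 2.48% of vehicle peaks inside. With 25 kb there were 2528, 16577, 53.7 kb and 28.4%. At least 4 peaks gave 1601 clusters, 7551 members and 13.9%, at least 6 gave 253, 1808 and 4.90%, and at least 10 gave 16, 228 and 1.53% at a median length of 59.9 kb. Chaining only peaks of fold enrichment 4 or more gave 56 clusters, 332 members (median fold enrichment 4.92) and 2.11%. The share of vehicle peaks inside was 6.60% with peaks of −log10 q 3 or more, 18.4% with no chain left out and 6.64% with 5 Mb kept from long stretches.

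The share of members with a vehicle peak stayed above that of outside peaks under each cluster setting, by a varying margin. It was 16% at 6 kb (12 percentage points above the outside peaks), 4.85% at 25 kb (1.05 points, outside 3.80%), 7.47% with at least 6 peaks (3.49 points) and 19.3% with at least 10 (15.3 points). It was 18.4% with fold enrichment of 4 or more (12.1 points, outside 6.32%), 7.56% with −log10 q of 3 or more (3.19 points, outside 4.38%) and 12% with no chain left out (8.04 points). Stricter overlap lowered both shares: 2.08% and 1.11% with 50% mutual cover (0.963 points), 4.55% and 2.63% with summits within 50 bp, 5.05% and 3.11% with vehicle peaks of −log10 q 3 or more, and 3.09% and 1.90% with vehicle fold enrichment of 6 or more. The margin vanished at local backgrounds under 2 times (3.38% and 3.36%, 0.0154 points). The next alternatives were chosen after seeing the data. Without clusters of median background 2 times or more the share was 3.96%, 0.00422 points above outside peaks of any background. Without the 5 clusters with the most vehicle peaks it was 5.01% (1.05 points). Weighting outside peaks to the pileups of the members raised their share to 7.42% and turned the difference to -1.47 points. Weighting to local background under 5 times gave 7.90% and -2.42 points, and weighting to fold enrichment 3.48%. The cause of these changes was not tested. The share of clusters with a vehicle peak was 43.1% at 6 kb, 19.9%, 32.4% and 68.8% with at least 4, 6 and 10 peaks, 50.0% with fold enrichment of 4 or more, 28.7% with −log10 q of 3 or more, 30.4% with no chain left out, and 20.2% and 12.3% with the stricter vehicle lists. Low vehicle depth limits what a missing vehicle peak can show.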
